A study of Mus musculus with 3 samples.

Results

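The genes described here encode the proteins of the mouse cytosolic ribosome. They were chosen by symbol: a gene named Rpl or Rps with a number, with or without a paralog suffix, or named Rplp0, Rplp1, Rplp2 or Rpsa, and with at least 1 protein-coding transcript. The rule itself uses no measured value, though it was set with earlier results of these data known. It gave 83 of the 55450 annotated genes, 52 of the large subunit and 31 of the small subunit. They lie on 19 chromosomes, with 14 of them on chromosome 7.

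The libraries came from bone marrow-derived macrophages, which are primary cells grown out from marrow, of the mouse strain C57BL/6J. All 3 libraries form 1 group. The cells received 100 ng/ml of lipid A for 12 hours, were kept without it for 12 hours, and then received 100 ng/ml again for 180 minutes. Lipid A anchors lipopolysaccharide in bacterial outer membranes and is sensed by the receptor TLR4. Other label fields call the agent lipoprotein A. Whole-cell RNA enriched for polyadenylated transcripts was sequenced, from 1 µg per library. The labels number the libraries as biological replicates 1, 2 and 3, and all carry 1 donor record, so the spread given here is that between these libraries and may in part be technical. No untreated library was used, and no level below is a response to lipid A. Expected counts over annotated genes summed to 23373296, 36818023 and 37681634 in replicates 1, 2 and 3. All 8 macrophage markers were found at 1 TPM (a length-normalised share of transcripts) or more in every library. The 15 markers of T cells, B cells, neutrophils, erythroid cells and fibroblasts were all under 1 TPM.

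The ribosome joins a small subunit, which reads the messenger RNA, to a large subunit, which forms the peptide bond. Most of its proteins are encoded by single active genes, alongside many intronless copies that arose by retrotransposition and a few expressed paralogs. Their messages often begin with a run of pyrimidines, the terminal oligopyrimidine (TOP) motif, through which mTOR signalling governs their translation in mammalian cells.

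Several sets of sequences bear on the measurements: start sites, for the TOP motif; paralog pairs, for how far reads can tell them apart; and Rps12, for a copy identical to it over most of the message. RefSeq windows from 250 bases before to 50 bases after the start (build GRCm38.p6) were found for 63 of the 83 genes. A run of at least 8 C or T bases on the sense strand, lying within 30 bases of the start, was present in 35 of the 63 genes, or 55.6%, and in 25.5% of 16522 protein-coding genes with a window. With the run beginning within 8 bases of the start, the figures were 20 of 63, or 31.7%, against 8.41%. The sequence CCGGAAG, a core that ETS-family factors recognise, occurred on either strand of the 300 bases in 25 of the 63 genes, or 39.7%, and in 13.4% of protein-coding genes. TATAAA on the sense strand from 40 bases before to 10 after the start was found in 2 of the 63 genes, or 3.17%, and in 3.58% of protein-coding genes. These are letter matches and not measured sites. The 8 most highly expressed of the 20 genes are shown from 20 bases before to 20 after the annotated start, with the pyrimidine run in capitals:
Rps24: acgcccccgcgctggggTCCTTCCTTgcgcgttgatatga
Rps27: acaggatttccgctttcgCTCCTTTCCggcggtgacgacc
Rpl13a: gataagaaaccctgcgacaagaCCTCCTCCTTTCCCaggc
Rps9: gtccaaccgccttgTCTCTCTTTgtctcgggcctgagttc
Rps10: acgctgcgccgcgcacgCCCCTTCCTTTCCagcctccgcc
Rps15a: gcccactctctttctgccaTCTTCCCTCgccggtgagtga
Rps18: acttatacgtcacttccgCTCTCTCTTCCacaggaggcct
Rpl38: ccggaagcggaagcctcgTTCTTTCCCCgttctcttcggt
The run began 3 bases before the start in Rps24 and 2 bases before it in Rps27, both among the highest genes of the small subunit. Rpl13a, with the longest run of the 8, had 14 pyrimidines from the third transcribed base.

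The coding sequences of 2 paralog pairs were compared. The coding sequences of Rpl36al (on chromosome 12) and Rpl36a (on chromosome X) are both 321 bases and identical at 282 of them, or 87.9%. Those of Rps27l (chromosome 9) and Rps27 (chromosome 3) are both 255 bases and identical at 194, or 76.1%. Neither pair shares a stretch of 31 bases within the coding sequence. Rpl36a also has a copy outside the pair, the processed pseudogene Rpl36a-ps2, all 321 bases of which match it in 1 run and which had 137, 458 and 519 counts in the alignment tables. Rps27l and Rps27 are shown, with the bases that differ in capitals (GENCODE M21 transcripts, build GRCm38, sense strand):
Rps27l: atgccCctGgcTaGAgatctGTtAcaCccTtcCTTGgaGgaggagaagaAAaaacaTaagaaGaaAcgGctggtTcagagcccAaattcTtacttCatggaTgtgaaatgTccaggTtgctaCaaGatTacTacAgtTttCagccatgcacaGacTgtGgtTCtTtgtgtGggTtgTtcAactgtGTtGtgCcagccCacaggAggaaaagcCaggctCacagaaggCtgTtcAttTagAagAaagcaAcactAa
Rps27: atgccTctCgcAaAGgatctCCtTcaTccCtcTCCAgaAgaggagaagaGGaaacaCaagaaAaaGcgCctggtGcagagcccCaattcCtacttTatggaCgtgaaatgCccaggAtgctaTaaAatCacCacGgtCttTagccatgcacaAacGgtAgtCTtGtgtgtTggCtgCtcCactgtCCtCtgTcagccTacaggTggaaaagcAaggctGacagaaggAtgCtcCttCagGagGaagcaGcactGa

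The coding sequence of Rps12, 399 bases spliced from the gene at chr10:23785183-23787275 on the minus strand, also occurs without a single difference in Rps12-ps3, an intronless gene at chr19:59322290-59322783 on the plus strand. Its first 300 bases read:
Rps12: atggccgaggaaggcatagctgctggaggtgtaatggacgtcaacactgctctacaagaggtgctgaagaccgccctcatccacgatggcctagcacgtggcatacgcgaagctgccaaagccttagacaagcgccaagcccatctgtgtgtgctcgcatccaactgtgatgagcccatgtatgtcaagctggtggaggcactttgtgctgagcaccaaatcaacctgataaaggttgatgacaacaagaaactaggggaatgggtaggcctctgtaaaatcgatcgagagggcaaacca
The annotated transcript of Rps12-ps3 is 494 bases long, and all 494 are found in 1 unbroken run in the main Rps12 transcript. A read inside that run fits both genes equally.

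Ribosomal protein genes were among the most abundant messages in these macrophages. At least 1 TPM in every library was measured for 80 of the 83 genes, against 44.4% of 21951 protein-coding genes. A mean of at least 100 TPM was reached by 77 of them (5.87% of protein-coding genes) and at least 1000 TPM by 9 (0.487%). By mean TPM, 32 stood among the highest 200 protein-coding genes and 65 among the highest 500. The family held 4.52%, 5.13% and 5.12% of all TPM in replicates 1, 2 and 3. Because TPM divides by length and these messages are short, their share of expected counts was smaller, at 1.29%, 1.42% and 1.38%. Counts assigned straight from the reads (the FASTQ-made tables) gave 1.15%, 1.30% and 1.29%. The plot of TPM by library shows 51 large-subunit and 29 small-subunit genes.

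**Figure D1:**
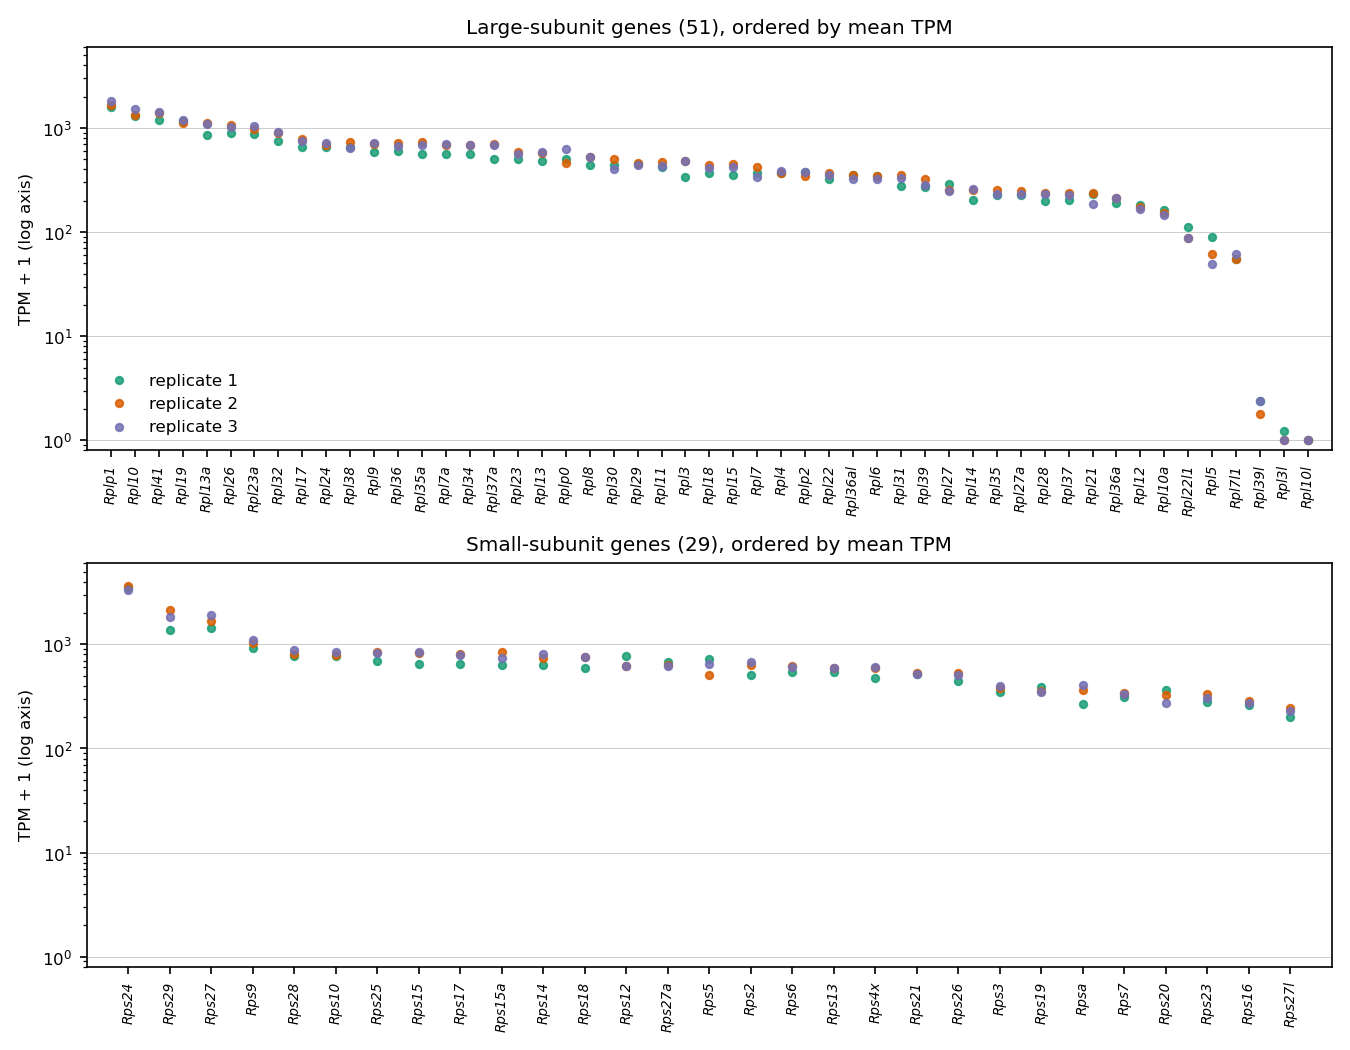
TPM + 1 on a log axis for 51 large-subunit genes (top) and 29 small-subunit genes (bottom), ordered by mean TPM, with 1 point for each of the 3 replicates. The small-subunit genes plotted all lie at 198 TPM or more, while the large-subunit genes end in 3 paralogs at or near 0.

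The median level over the family, as log2(TPM + 1), was 8.96 ± 0.13 (SD, n = 3 libraries). The 78 nuclear genes for proteins of the mitochondrial ribosome, which translates the few messages of the mitochondrial genome, had a median of 5.003 ± 0.060 on that scale. All 78 reached 1 TPM in every library and 5 reached a mean of 100 TPM. The within-library difference of the medians, cytosolic minus mitochondrial, was 3.88, 3.98 and 4.03, a mean of 3.96 ± 0.074 in log2. It was positive in 3 of 3 libraries. The exact two-sided sign-flip test over 3 libraries gave p = 0.25, the smallest it can give, and that holds for each such test below.

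Levels below are those of the alignment tables unless the FASTQ-made tables are named. Among large-subunit genes, the acidic stalk protein gene Rplp1 was highest, though counts held by a copy of Rpl41, given below, bear on that rank. The stalk is the flexible arm that recruits elongation factors. Rplp1 had 1577, 1675 and 1827 TPM in replicates 1, 2 and 3. Its partner Rplp2 had 380.0, 347 and 374 TPM, and the stalk base Rplp0, which anchors both, had 505, 465 and 632 TPM. The highest Rplp2 value lay below the lowest Rplp0 value, and the highest Rplp0 value below the lowest Rplp1 value, so the stalk genes kept 1 order in every library.

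Next came Rpl10, whose protein joins the subunit at a late cytoplasmic step of assembly, with 1295, 1346 and 1506 TPM. In the FASTQ-made tables Rpl10 had 525, 716 and 956 TPM, a log2 ratio, FASTQ over alignment, of -0.96 ± 0.33. Its copy Rpl10-ps3 had 5727, 5582 and 5394 counts in the FASTQ-made tables, against 824, 1015 and 1273 counts in the alignment tables. Rpl41, which encodes an exceptionally short peptide, had 1190, 1386 and 1425 TPM, a range that overlaps that of Rpl10. Rpl19 had 1158, 1113 and 1192 TPM. These 3 genes lay below Rplp1 in every alignment table. That order did not hold in the FASTQ-made tables: Rpl41 had 975, 1182 and 1428 TPM there and Rplp1 991, 1168 and 1440 TPM, so Rpl41 was the higher in replicate 2. Rpl19 had 737, 854 and 1031 TPM there, above Rpl10 in every library. The gene Gm10076, which shares a run of 150 bases with Rpl41, had 2, 7 and 1 counts in the FASTQ-made tables, against 1921, 4031 and 4851 counts in the alignment tables. The alignment counts correspond to 897, 1270 and 1613 TPM. The rank of Rpl41 below Rplp1 can thus depend on how reads were divided. Rpl13a, known in human monocytic cells as a subunit released to silence inflammatory messages, had 851, 1114 and 1099 TPM. Rpl26 had 899, 1067 and 1029 TPM. Both were lowest in replicate 1.

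The lowest large-subunit genes were mostly paralogs: Rpl10l, Rpl3l, Rpl39l, Rpl7l1 and Rpl22l1 are described with their main genes below. The exception was Rpl5, which with Rpl11 and the 5S ribosomal RNA forms a particle that can bind Mdm2. Rpl5 had 89.1, 60.8 and 48.0 TPM, while Rpl11 had 423, 474 and 431 TPM, so the ranges did not overlap. The low level of Rpl5 goes with 3738, 7408 and 7410 expected counts in its copy Gm15500, described below.

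In the small subunit, Rps24 stood alone at the top with 3460, 3636 and 3305 TPM. Its lowest library exceeded the highest library of every other member. Rps24 is known for cell-type-dependent splicing of short exons at its 3′ end, and in these libraries a 468-base transcript carried 91.3% ± 1.10 of its TPM. Rps29 had 1382, 2129 and 1838 TPM and Rps27 had 1432, 1684 and 1920 TPM; both encode short zinc-binding proteins. Those ranges overlap each other and that of Rplp1. Rps9, a protein of the early 40S assembly core, had 917, 1033 and 1090 TPM. Rps28, whose protein lies near the exit of the messenger RNA channel, had 769, 803 and 877 TPM.

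At the lower end of the small subunit, Rps27l had 198, 245 and 226 TPM. Rps16, whose protein contacts the transfer RNA in the P site, had 260, 287 and 271 TPM. Rps23, which shapes decoding accuracy, had 281, 329 and 305 TPM. No library of Rps27l reached the lowest of Rps16. Rps20 had 367, 325 and 271 TPM, and Rps7 had 314, 344 and 335 TPM. The ranges of Rps16, Rps20 and Rps23 overlap. Rps23-ps1, all 425 bases of which match Rps23 in 1 run, had 1211, 2655 and 2768 counts in the alignment tables. Those correspond to 442, 647 and 700 TPM, above Rps23 itself. Rps16-ps2, all 441 bases of which match Rps16, had 230, 339 and 356 counts. The low levels of Rps23 and Rps16 can thus depend on how reads were divided.

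Rpsa, which encodes a 40S protein also known as a laminin receptor precursor, had 267, 361 and 403 TPM. Rps27a, made as a fusion of ubiquitin with the ribosomal protein, had 679, 637 and 620 TPM. The other cytosolic ribosomal protein genes that the symbol rule leaves out included Fau, which carries the small-subunit protein eS30, at 732 ± 37.7 TPM and Rps3a1 at 628 ± 55.5 TPM (SD, n = 3 each). Both lie within the range of the family.

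Large-subunit genes had a lower median than small-subunit genes. The median log2(TPM + 1) was 8.55, 8.83 and 8.71 for the large subunit, against 9.07, 9.28 and 9.28 for the small subunit. The difference, large minus small, was -0.52, -0.46 and -0.57, a mean of -0.51 ± 0.055, negative in 3 of 3 libraries (exact sign-flip p = 0.25). On expected counts scaled to library size but not divided by length, it was -0.13 ± 0.018. Across 80 expressed genes, Spearman's rho between mean TPM and effective length was -0.55, a description over genes of the same libraries in which the length also enters the TPM. Summed over the subunit, large-subunit TPM exceeded small-subunit TPM 1.14-fold in each library, with 52 genes against 31.

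Of 7 paralog pairs, the paralog was lower than its main gene in all 3 libraries in 6 pairs and higher in 1. The exception was Rpl36al, a relative of Rpl36a on another chromosome. Rpl36al had 350, 353 and 323 TPM, against 190, 212 and 212 TPM for Rpl36a, so the groups of values did not overlap. The log2 ratio of Rpl36al over Rpl36a was 0.74 ± 0.14, or 167% ± 16.1 of the Rpl36a level (n = 3, exact sign-flip p = 0.25). It was positive in 3 of 3 libraries. The FASTQ-made tables, the smaller pseudocount and CPM left it positive. The copy Rpl36a-ps2, which matches Rpl36a, also held counts, so the ratio can depend on how reads were divided. Rpl36a and this copy together had 829, 1629 and 1666 counts in the alignment tables, against 1506, 2315 and 2081 for Rpl36al. TPM was not summed over gene and copy.

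**Figure D2:**
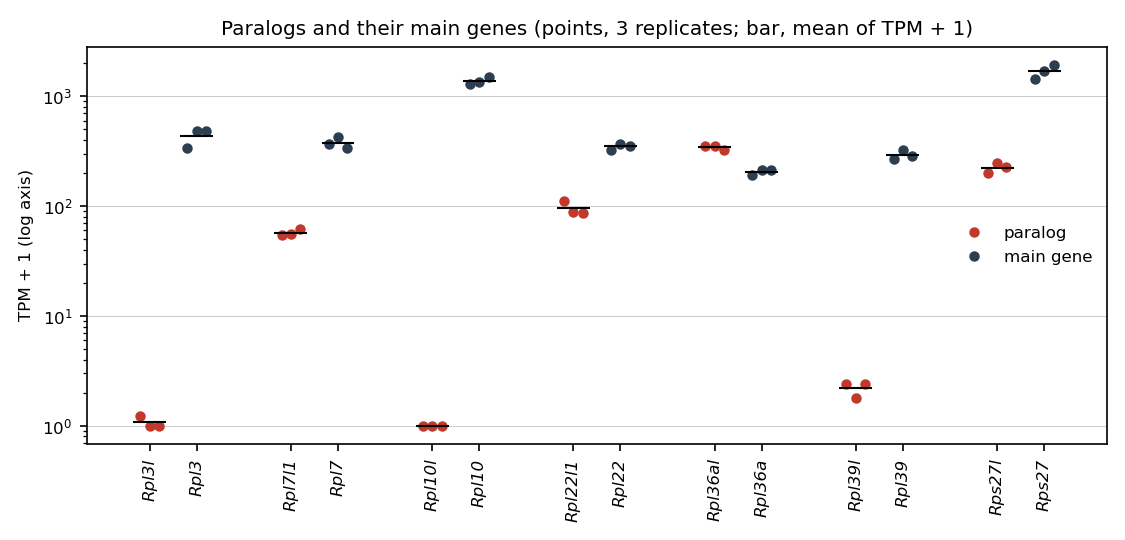
TPM + 1 on a log axis for 7 paralogs (red) and, to the right of each, its main gene (dark), with 1 point for each replicate and a bar at the mean. Rpl36al is the single paralog above its main gene, while Rpl3l, Rpl10l and Rpl39l lie at or near 0.

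Some paralogs were moderately expressed beside an abundant main gene. Rps27l, known in human and mouse cells as a p53 target, reached 13.4% ± 1.42 of Rps27, a log2 ratio of -2.90 ± 0.16. On CPM, which does not divide by length, the ratio was -1.57 ± 0.11. Rpl22l1, known from mouse knockouts as the paralog that rises when Rpl22 is lost, had 111, 87.2 and 86.0 TPM, against 326, 368 and 349 TPM for Rpl22. That is 27.5% ± 5.70 of the main gene, a log2 ratio of -1.87 ± 0.28. The Rpl22l1 share was highest in replicate 1, where Rpl22l1 was highest and Rpl22 lowest. Rpl7l1, a relative of the yeast ribosome assembly factor Rlp7, had 53.9, 54.7 and 60.7 TPM, against 365, 425 and 338 TPM for Rpl7, a log2 ratio of -2.71 ± 0.24, or -1.64 ± 0.23 on CPM. None of these pairs overlapped in TPM.

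The remaining paralogs, known for restricted expression in other tissues, were barely detected. Rpl10l, a testis-expressed retrogene, had 0 counts in every library. Against a floor of 3 counts per library, Rpl10l was at least 3296-fold lower than Rpl10. Rpl3l, a gene of heart and skeletal muscle, had 3, 0 and 0 counts, against 32429 counts of Rpl3 summed over the libraries. The count ratio of Rpl3 over Rpl3l was 10810, with an exact 95% binomial interval of 3699 to 52420 that covers counting error only. Rpl3 itself had 335, 477 and 479 TPM. Rpl39l, best known from male germ cells, had 12, 11 and 19 counts, or 1.38, 0.81 and 1.39 TPM, against 268, 322 and 283 TPM for Rpl39, a log2 ratio of -7.06 ± 0.36. The ratio was -5.59 on CPM and -7.85 with a pseudocount of 0.1.

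The SD over 3 libraries of log2 CPM (counts scaled to library size by TMM factors) had a median of 0.102 over the members, 0.116 over the mitochondrial ribosomal protein genes and 0.158 over 10502 expressed genes. No expressed member differed by more than 1 on the log2 scale between its highest and lowest library (0 of 80), nor did any of the 78 mitochondrial ribosomal protein genes, while 4.28% of expressed genes did. These groups differ in level, with median TPM of 499, 31.1 and 16.7 for members, mitochondrial genes and expressed genes (mean of 3 libraries). Spread was not compared at matched levels. Without replicate 1 the median SD was 0.0493 over the members and 0.116 over expressed genes. Pearson's r of log2(TPM + 1) over 80 members was 0.977 and 0.974 for replicate 1 with replicates 2 and 3, and 0.993 between replicates 2 and 3. These r values are across genes, which are not independent replicates.

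Replicate 1 stood a little lower. The median deviation of the members from their own mean over libraries was -0.070, 0.034 and 0.019 in log2 CPM in replicates 1, 2 and 3, while over expressed genes it was -0.0044, 0.0078 and 0.0069. The mitochondrial ribosomal protein genes showed -0.066, 0.049 and 0.012. By TPM, 58 of 80 members were lowest in replicate 1, against 38.2% of expressed genes. By TMM-scaled CPM, 48 of 80 were lowest there, against 37.0%. Replicate 1 also had the fewest counts, and the part of depth in this was not tested. In bulk RNA, fewer cells of a type and less RNA per cell cannot be told apart.

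**Figure D3:**
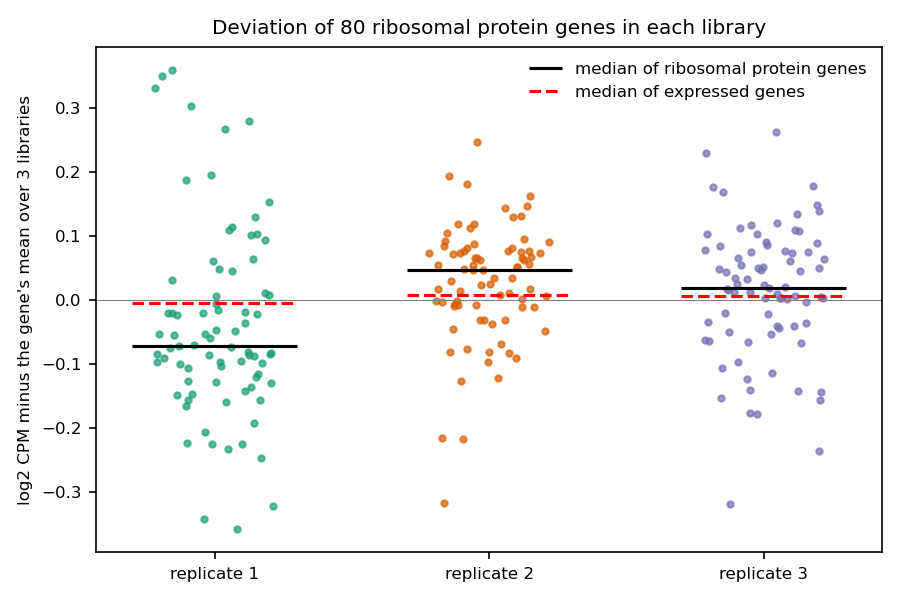
Deviation of 80 expressed ribosomal protein genes from their own mean over 3 libraries, in log2 CPM, with 1 point for each gene in each replicate. The black bars are the members' medians, lowest in replicate 1, and the red dashed bars are the medians of all expressed genes, close to 0.

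The members did not all follow that shift. Rpl15 had 165, 240.1 and 233 CPM, lowest in replicate 1. Rpl5 had 56.5, 43.1 and 35.2 CPM, Rplp2 had 137, 91.9 and 96.8 CPM, and Rps20 had 197, 146 and 133 CPM. These last were highest in replicate 1. The SDs of these 4 genes lay between 0.30 and 0.34 in log2 CPM, among the largest of the expressed members. The Rpl5 values depend on how reads were divided with its copy Gm15500. Gene and copy together had 5034, 9036 and 8725 counts in the alignment tables, not scaled to library size. For Rplp2 the summed TPM stayed level while its transcripts moved in opposite directions: the 964-base coding transcript had 248, 150 and 154 TPM and the 421-base coding transcript 115, 186 and 211 TPM. At the other end, Rpl12 had 107, 105 and 106 CPM and Rpl36a had 30.2, 31.02 and 30.7 CPM. Both have copies that held counts too, so their small spread also depends on how reads were divided. Rpl12 and its copy Gm10275 together had 3155, 5526 and 5805 counts in the alignment tables, not scaled to library size.

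The deposit holds a second estimate for each library, made from the reads without a genome alignment, and the comparison asks whether both give a gene the same level. For most ribosomal protein genes they did so to within a common offset. The log2 ratio, FASTQ over alignment TPM, had a median of -0.43 ± 0.17 over the members and -0.21 ± 0.21 over expressed genes (SD, n = 3). It was below 0 in all 3 libraries for 75 of 80 members, against 57.6% of expressed genes. In the FASTQ-made tables, transcripts annotated as miRNA held 18.7%, 17.1% and 7.89% of all TPM in replicates 1, 2 and 3, and 0.0048%, 0.016% and 0% in the alignment tables, which lowers every other gene's share there. A mean absolute difference of at least 1 was found for 4 of 80 members, against 8.08% of 11219 genes and 1.26% of protein-coding genes, and all 4 were lower in the FASTQ-made tables, where 2.38% of the 11219 genes had a mean at or below -1. On CPM, 3 of 80 members reached a difference of 1, against 3.46% of the 11219 genes. After centring on the median of expressed genes the count was also 3, against 8.15%.

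Rps12, a small-subunit protein at the beak of the 40S particle, differed most. It had 22.2, 17.9 and 16.9 TPM in the FASTQ-made tables, against 771, 622 and 612 TPM in the alignment tables, a log2 ratio of -5.07 ± 0.028. Rpl12, which forms the base of the stalk with Rplp0, had 11.4, 9.20 and 8.80 TPM, against 182, 172 and 167 TPM, a log2 ratio of -4.02 ± 0.12. Rpl5 had 10.1, 10.9 and 7.49 TPM, against 89.1, 60.8 and 48.0 TPM, a log2 ratio of -2.64 ± 0.34. In all 3 genes the tables did not overlap.

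The copies of these genes held the larger counts in the FASTQ-made tables. For Rps12, the FASTQ-made tables gave the gene 240, 262 and 187 counts and Rps12-ps3 4896, 5089 and 4973 counts. The alignment tables gave Rps12 4018, 4997 and 4829 counts and Rps12-ps3 193, 94 and 50 counts. Gene and copy together had 5135, 5351 and 5159 counts in the FASTQ-made tables, against 4212, 5091 and 4879 counts in the alignment tables. The sums were thus close, in particular in replicates 2 and 3, while the division between gene and copy differed. The shared run covers 494 of the 584 bases of the main Rps12 transcript, so some bases are found in Rps12 only. These counts are not scaled to library size. The FASTQ-made tables summed to 30663074, 40522722 and 40851328 counts, more than the alignment tables in every library.

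The same division was seen for Rpl12 and its intronless copy Gm10275 at chr10:29698746-29699380 on the minus strand, which shares 634 of its 635 bases with Rpl12 in 1 run. The FASTQ-made tables gave Rpl12 225, 262 and 202 counts and Gm10275 3593, 5509 and 5898. In the alignment tables Rpl12 had 2446, 3978 and 3964 counts and Gm10275 had 709, 1548 and 1841. Rpl5 shares 1018 of the 1019 bases of Gm15500, at chr7:114705217-114706235 on the minus strand, in 1 run. Here both kinds of table gave most counts to the copy: 5934, 9122 and 8875 in the FASTQ-made tables and 3738, 7408 and 7410 in the alignment tables, with 250.3, 335 and 229 and then 1297, 1628 and 1315 counts for Rpl5 itself. The whole coding sequences of Rpl12 (498 bases) and Rpl5 (894 bases) lie inside these copies, so the levels of Rps12, Rpl12 and Rpl5 are uncertain in both tables. The main coding transcripts of Rpl12 and Rpl5 are 1242 and 2045 bases long, so large parts of them lie outside the shared runs.

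**Figure D4:**
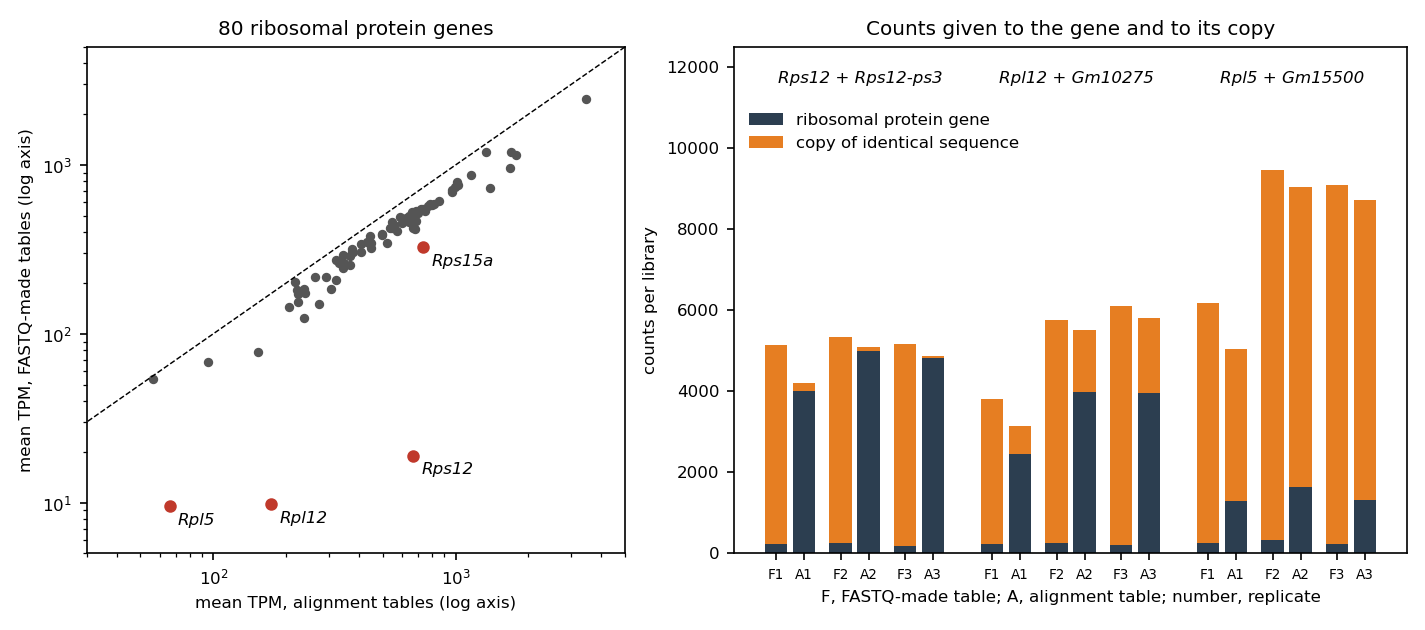
Left, mean TPM over 3 replicates of 80 ribosomal protein genes in the alignment tables (x) and the FASTQ-made tables (y), both on log axes, with the dashed line at equality; Rps12, Rpl12, Rpl5 and Rps15a lie farthest below it. Right, counts per library of Rps12, Rpl12 and Rpl5 (dark) stacked with those of their copies (orange). The copies, marked as of identical sequence, match only part of each gene's main coding transcript. F is the FASTQ-made table and A the alignment table of each replicate. The stacks are of similar height while the dark part is smaller in F.

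Of the 80 expressed members, 15 had another gene at least 95% of whose transcript, and at least 300 bases, matched the main coding transcript in 1 run. Of these 15, Rps12, Rpl12 and Rpl5 had a log2 ratio at or below -1. The copy had more FASTQ-made than alignment counts in all 3 libraries in 8 of the 15, and fewer in all 3 in 3. These counts are not scaled, the FASTQ-made totals were the larger, and the same was not counted over all genes. Gm7536, the copy of Rpl27a, had 3278, 5000 and 4939 counts in the FASTQ-made tables, against 1201, 2543 and 2801 counts in the alignment tables. The other 12 copies are annotated as processed pseudogenes, the 3 just named as a protein-coding gene or transcribed pseudogenes. The copies of Rpl13, Rps13 and Rps6 were listed at 0 counts, rounded, in the FASTQ-made tables in all 3 libraries. The copy of Rps6, Rps6-ps4, had 406, 784 and 715 counts in the alignment tables, so the division went the other way there. Over the 15 genes the median log2 ratio was -0.55, and over the other 65 it was -0.43. Across 80 genes, Spearman's rho between the longest shared run and the log2 ratio was -0.13.

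Rps15a was the fourth gene, with 334, 337 and 312 TPM in the FASTQ-made tables, against 629, 841 and 737 TPM in the alignment tables (log2 ratio -1.16 ± 0.22). On CPM the ratio was -0.10 ± 0.012, and after centring on the median of expressed genes the TPM ratio was -0.95 ± 0.41. The difference was thus seen on TPM, which divides by length, and hardly on counts. The lengths behind the FASTQ-made values were not compared. In the alignment tables a 250-base transcript with an effective length of 31.8 bases took 371 counts on average and 70.3% ± 4.78 of the gene's TPM, whereas a 5179-base transcript took 3086 counts and 3.69% ± 0.12. Rpl10a, just short of the threshold of 1, had 80.1, 78.4 and 74.2 TPM in the FASTQ-made tables, against 161, 152 and 145 TPM, a log2 ratio of -0.96 ± 0.027. Its copy Rpl10a-ps1 contains 654 bases of it in 1 run.

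Shared sequence was counted for each member, but not over all genes. More than 10% of the 31-base sequences of 72 of the 83 genes also occur in transcripts of other genes, with a median of 26.8%. More than 50% were shared in 8 genes, and Rpl36 shared 94.1%. Sequences on either strand were counted, so overlap with an antisense transcript also counts as sharing. Levels of such genes can depend on how reads were divided, but sharing alone does not show that they do. For Rpl36, the genes sharing at least 100 such sequences had 24, 6 and 14 counts in the alignment tables. Rpl36 itself had 1301, 2263 and 2028 counts there.

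Most members expressed 1 main transcript. The top transcript held a median of 96.6% ± 0.35 of the gene's TPM (SD over 3 libraries), and 53 of 80 members had over 90% in it, against 36.9% of expressed protein-coding genes. Transcripts annotated as protein-coding held less than 90% of the TPM in 10 of 80 members, against 33.7% of expressed protein-coding genes, and less than 50% in 4, against 5.94%.

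Those 4 were Rps20, Rps16, Rpsa and Rpl5. Transcripts annotated as retained_intron, which keep intronic sequence, held 87.2% ± 1.59 of Rps20, 80.0% ± 4.62 of Rps16 and 64.7% ± 7.68 of Rpl5. A transcript annotated for nonsense-mediated decay, the pathway that degrades messages with early stop codons, held 64.5% ± 6.26 of Rpsa. These shares are of TPM, which divides by length. For Rps20 the 582-base retained_intron transcript had 1895 counts and 277 TPM on average, and the 3706-base coding transcript 3085 counts and 41.3 TPM. By counts, protein-coding transcripts held 61.9% ± 2.84 of Rps20, 61.5% ± 8.35 of Rpl5, 51.8% ± 6.61 of Rpsa and 41.7% ± 5.95 of Rps16. Rps16 alone of the 4 thus had a mean under 50% on both measures, while that of Rpsa lay within its SD of 50%. Nonsense-mediated decay transcripts also held 35.5% of Rpl13a, a decay route known to tune several ribosomal protein genes. These are divisions of short reads between overlapping transcripts, and no junction counts were used here. The Rpl5 shares, by TPM and by counts, also depend on how reads were divided with its copy Gm15500. That copy contains the whole Rpl5 coding sequence and had 3738, 7408 and 7410 counts in the alignment tables. Rps16 likewise shares a run of 441 bases with its copy Rps16-ps2.

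**Figure D5:**
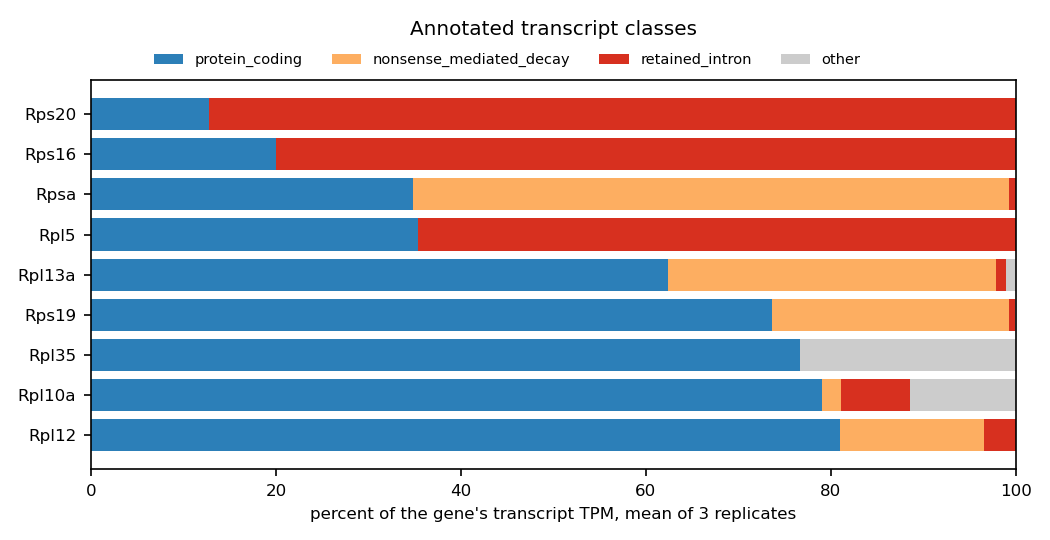
Percent of transcript TPM, mean of 3 replicates, by annotated class for 9 of the 10 expressed members with less than 90% in protein_coding transcripts. Rps20 and Rps16 are mostly retained_intron (87.2% and 80.0%) and Rpsa mostly nonsense_mediated_decay (64.5%).

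Introns of ribosomal protein genes are known hosts of small nucleolar RNAs, which guide ribosomal RNA modification. The annotation tags 31 of the 83 members as hosts of a non-coding RNA, against 6.52% of protein-coding genes and 2 of the 78 mitochondrial ribosomal protein genes. By subunit the counts were 21 of 52 large-subunit genes and 10 of 31 small-subunit genes. This feature comes from the annotation and not from the libraries.

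Translation factors known to share the TOP motif were also abundant: all 14 of the list reached 1 TPM in every library and 10 reached a mean of 100 TPM. Eef1a1, which delivers aminoacyl-tRNA to the ribosome, had 2649, 3001 and 2986 TPM, and Tpt1 had 1584, 1596 and 1928 TPM. Of 18 ribosome biogenesis genes, all reached 1 TPM in every library and none reached a mean of 100 TPM. The highest, the nucleolar protein gene Ncl, had 98.2, 91.9 and 91.9 TPM. Myc, a transcription factor that promotes ribosome synthesis, had 15.0, 5.23 and 5.25 TPM, highest in replicate 1. Ncl, Nop56, Nop58, Dkc1, Polr1a, Polr1b and Nolc1 were also highest in replicate 1, while other genes of that list, such as Pes1 and Gar1, were lowest there. The list medians, as log2(TPM + 1), were 8.96 for the ribosomal protein genes, 7.56 for the translation factors and 4.31 for the biogenesis genes, with 4.14 over expressed genes.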

How the data were processed

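Polyadenylated RNA of 3 libraries of 1 group was analysed. Members and lists were chosen with earlier results of these data known. The authors deposited, per the file headers, expected counts and TPM per gene and per transcript, made from a transcriptome alignment to mm10 with annotation M21. They also deposited estimated counts and TPM per transcript made directly from the reads. Which programs made them, and whether counting used strand, is not given in the sources used here. FASTQ-made values were summed per gene. Levels are log2(TPM + 1). A gene counts as expressed at 1 TPM or more in all 3 libraries. The TMM factors of edgeR 4.0.16, on expected counts rounded to whole numbers, scaled the log2(CPM + 1) used for replicate spread, and DESeq2 1.42.0 gave alternative size factors. With 1 group no contrast was fitted. Differences within libraries had an exact two-sided sign-flip test (scipy 1.17.1). Depth was 23373296 to 37681634 expected counts, so 3 counts correspond to 0.080 to 0.128 CPM; counting limits cover counting error only. Values in every library are given for the highest and lowest members of each subunit (6 large, 5 small), paralog pairs, the stalk genes, Rpsa, Rps27a, the 5 most and 3 least variable members and the 5 with the largest difference between tables. A few genes these rules name are not reported here. Rpl11, Rps6 with its copy and the Rps24 transcripts were added after values were seen. Shared sequence was counted in 31-base windows of GENCODE M21 transcripts. No protein sequences were used here.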

Additional observations from a re-analysis of the deposited data

How the results depend on the processing

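No comparison between groups, paired or not, was possible because the 3 libraries form 1 group. With the FASTQ-made tables, the median log2(TPM + 1) over the members was 8.54, their share of TPM 3.52%, large minus small -0.45 and cytosolic minus mitochondrial 3.82. The share was 1.36% of expected counts, 5.48% of the TPM of nuclear protein-coding genes, and 4.54% of that total in the FASTQ-made tables, a setting added after seeing the data. Large minus small was -0.13 on CPM and -0.40 without the paralogs and the members under 1 TPM, the last also added. At a threshold of 0.5 the tables differed for 21 members, against 11.5% of all genes. The cause of these shifts was not tested. Centring on the median of expressed genes, or CPM, both added, left 3 members, Rps12, Rpl12 and Rpl5, against 8.15% of all genes after centring and 3.46% on CPM. The summary values and paralog ratios kept their sign, while the ratio between tables changed sign on CPM for 5 of 80 members (Rpl41, -0.17 on TPM, was 0.66) and after centring for 3. Leaving out 1 library at a time gave ranges of 80 to 81 expressed members, 8.92 to 9.04 for the median, 4.82% to 5.12% for the share, -0.54 to -0.49 for large minus small, 3.93 to 4.0004 for cytosolic minus mitochondrial, 0.0493 to 0.118 for the replicate SD, 4 to 6 for members that differed between tables (Rpl10 and Rpl27a joined without replicate 3), 6 in each case for lower paralogs, and 96.4% to 96.8% for the top transcript. DESeq2 size factors gave a shift of replicate 1 of -0.068 and no scaling gave -0.095.

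Depth limits the paralogs near 0: Rpl10l, Rpl3l and Rpl39l rest on 0, 3 and 42 counts over 3 libraries. The 3 libraries with 1 donor record and no untreated group allow no statement on lipid A.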
